A study of Mus musculus with 6 samples.

Results

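Activated ILC2s carried transcripts of 10 genes that restrain mitogen-activated protein (MAP) kinase signalling: the dual-specificity phosphatase genes *Dusp1*, *Dusp2*, *Dusp4*, *Dusp5*, *Dusp6* and *Dusp10*, the Sprouty genes *Spry1* and *Spry2*, and the Sprouty-related genes *Spred1* and *Spred2*. They were chosen by family and role, with earlier results of these data known. All 10 are among the 16381 genes with a value, and all 10 passed the filter on low values that left 14419 genes to test. The question was which of these brakes differed between melatonin-treated and vehicle-treated ILC2s, and by how much. With melatonin, *Spred1* was 2.75 times its vehicle mean and *Dusp5* 1.45 times, *Dusp4* was 0.77 times, and the other 7 genes did not pass the test. *Spred1* kept its call in 6 of 6 fits that left out a sample, *Dusp4* in 5 and *Dusp5* in 1.

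Group 2 innate lymphoid cells (ILC2s) are lung-resident lymphocytes that release type 2 cytokines in response to IL-33. The ILC2s of both groups came from wild type mice, BALB/cJ by the study's methods, which also give the animals as females of 6 to 8 weeks of age. All mice had received 0.5 µg of recombinant IL-33 through the nose on each of 3 days, and live CD45+ lineage-negative ST2+ CD127+ cells were sorted from digested lungs to a stated purity above 95%. These activated ILC2s (aILC2s) were then cultured for 24 h, 3 samples with 250 µM melatonin and 3 with its solvent DMSO, called vehicle here. No sample without IL-33 and none taken before culture was analysed here, and the sources do not say whether animals were pooled or whether the samples of a group came from separate mice, so the p-values measure only the spread between these samples, which may be technical.

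MAP kinases pass signals from receptors at the cell surface to the nucleus through chains of kinases, of which Ras, RAF, MEK and ERK form the best known. The receptor for IL-33 engages p38, JNK and ERK, the main MAP kinases, and in ILC2s these pathways feed cytokine production. MAP kinase phosphatases remove the phosphates from the threonine and the tyrosine that switch a MAP kinase on. Many of their genes are themselves switched on by MAP kinases, which makes a negative feedback loop. Sprouty proteins act further up, between receptors and Ras, and SPRED proteins bring the Ras inactivator neurofibromin to the membrane.

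Some features of the libraries touch the results that follow. The 6 libraries held between 17056244 and 20511736 estimated counts, so a gene at 100 normalized counts rests on about as many reads. Although the methods describe female mice, transcripts of the Y-linked genes *Ddx3y*, *Eif2s3y*, *Kdm5d* and *Uty* were present in the 3 vehicle libraries and in melatonin replicate 1 and were at 0 in melatonin replicates 2 and 3, where *Xist* stood at 579 and 1091 normalized counts. The fold change of each member is therefore also given for the 4 libraries with Y-linked transcripts. That fit has a single melatonin library, so its spread comes from vehicle alone and says nothing of the spread with melatonin. Library numbers of the melatonin and vehicle samples run in separate blocks, so a batch that followed them cannot be told apart from the treatment.

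Markers of other cells were also unequal between the groups. The summed level of the NK and ILC1 list (5 of 5 genes listed, mostly *Gzma*) ranged from 5944 to 7224 in vehicle and from 75.6 to 210 with melatonin, where *Klrb1c* was at 0 in each library. The macrophage and dendritic list (5 of 6) ranged from 1397 to 1588 against 364 to 821. The T cell list (3 of 6, mostly *Trbc2*, with *Cd4*, *Cd5* and *Cd8a* not listed) ranged from 3642 to 3965 against 1318 to 1825. The B cell list (2 of 5, nearly all *Cd79b*) ranged from 289 to 322 against 131 to 162, and the endothelial list (2 of 5, nearly all *Pecam1*) from 1008 to 1069 against 310 to 416. The epithelial list (6 of 6) stood at 1028, 954 and 2299 in vehicle replicates 1, 2 and 3 and between 1061 and 1261 with melatonin, and the airway gene *Scgb1a1* made 1045 of the 2299. With melatonin *Scgb1a1* was at 0, 0 and 1.01, and *Epcam* made nearly all of the sum. *Epcam* rose from 667 ± 67.6 to 1097 ± 116 (SD, n = 3 each), so the sum hides the other genes. Of the 6 genes, 1 was called higher (*Epcam*) and 4 lower, beside 24.5% and 24.7% of all tested genes. The eosinophil, mast cell and basophil list (3 of 6) ranged from 9.37 to 18.9 against 1.87 to 37.2. No fibroblast marker of 5 was listed, and the 10 ILC2 markers were all present, 2 of them called higher (*Il1rl1* and *Rora*) and 7 lower. The part of other cells in the results for the 10 genes was not tested, and in bulk RNA fewer cells of a type and less RNA per cell cannot be told apart.

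The calls went in both directions. Tested by limma on log2 normalized counts, with Benjamini-Hochberg adjustment over all 14419 genes and a threshold of 0.05, 2 of the 10 were called higher (*Spred1* and *Dusp5*) and 1 lower (*Dusp4*). Over all tested genes, 24.5% were called higher and 24.7% lower, so the members' shares of 2 and 1 in 10 are no higher than the background. The values of the groups did not overlap for 5 members, 2 of them higher with melatonin and 3 lower (*Dusp4*, *Spred2* and *Spry2*, the last with no melatonin value above the filter on low values). Among all tested genes, 30.0% had every melatonin value above every vehicle value and 30.3% had them all below. The median log2 fold change was 0.12 over the 10 genes and 0.0 over all genes tested.

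**Figure D1:**
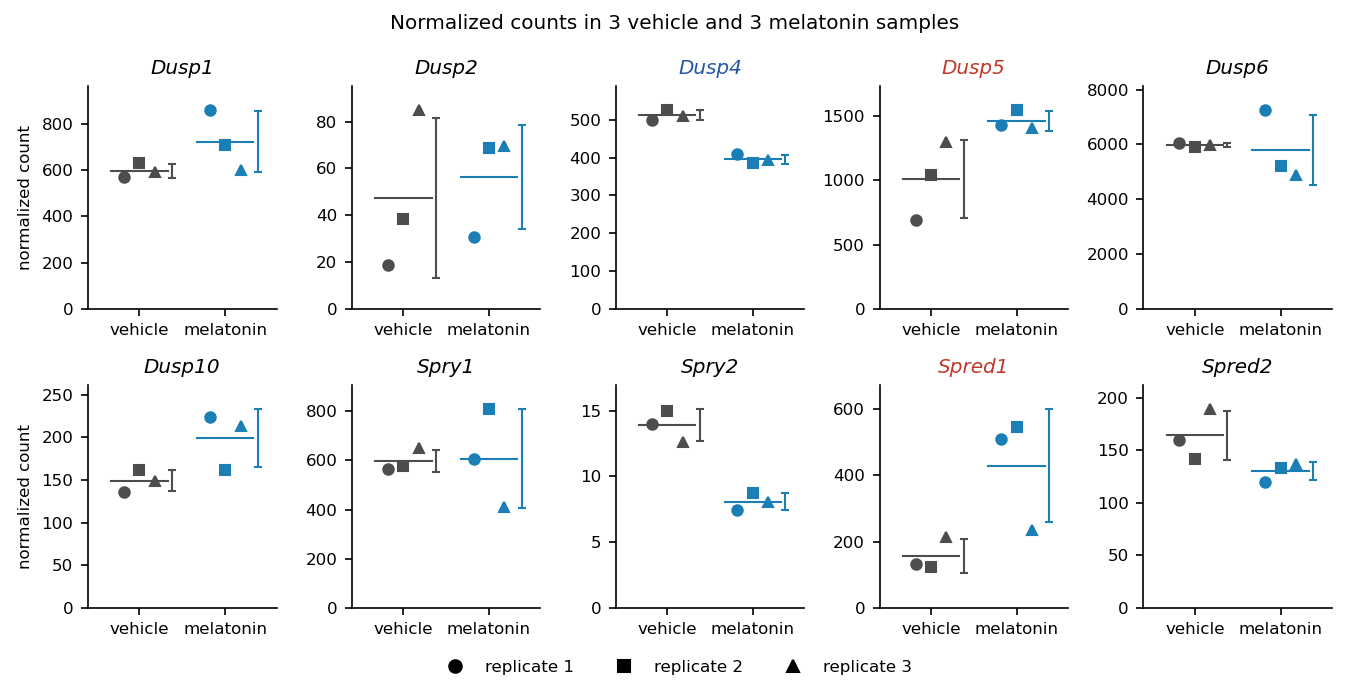
Normalized counts (vertical axes, from 0) of the 10 genes in the 3 vehicle (grey) and 3 melatonin (blue) samples, with replicates told apart by symbol, the mean as a horizontal line and the SD as a bar. Red and blue gene names mark the genes called higher (*Dusp5*, *Spred1*) and lower (*Dusp4*). *Dusp4* is tight in both groups, while *Spred1* with melatonin runs from 234 to 545.

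The nuclear phosphatases encoded by *Dusp1*, *Dusp2*, *Dusp4* and *Dusp5* are classic early-response products that act on MAP kinases inside the nucleus. *Dusp5*, whose product is selective for ERK, was at 691, 1043 and 1299 normalized counts in vehicle replicates 1 to 3 and at 1429, 1551 and 1407 with melatonin. Every melatonin value lay above every vehicle value, and the spread was almost wholly on the vehicle side, at 1011 ± 305 (SD, n = 3) against 1462 ± 77.5 with melatonin. *Dusp5* rose by a log2 fold change of 0.58 with a standard error of 0.20 (95% interval 0.13 to 1.02, limma adjusted p = 0.036). The log2 SD of *Dusp5* among vehicle samples, 0.46, was larger than that of 97.6% of the abundant genes, those with a mean of at least 100.

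The call of *Dusp5* rests on few samples. It held in 1 of the 6 fits that left out a sample, that without vehicle replicate 3 (0.78, limma adjusted p = 0.012). It was lost without vehicle replicate 1 (0.33, adjusted p = 0.065), the lowest sample, without vehicle replicate 2 (0.62, adjusted p = 0.072) and without melatonin replicate 1, 2 or 3 (0.59, 0.53 and 0.60, with limma adjusted p of 0.056, 0.10 and 0.066). It was also lost without the mean-variance trend (limma adjusted p = 0.099). In the libraries with Y-linked transcripts the log2 fold change was 0.55.

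*Dusp4*, which encodes a phosphatase of ERK and other MAP kinases that is itself induced by ERK, moved the other way. Its levels were 500, 527 and 512 in vehicle and 409, 386 and 394 with melatonin. The groups were far apart relative to their spread, 513 ± 13.2 against 396 ± 11.8 (SD, n = 3 each). *Dusp4* fell by 0.37 on the log2 scale (standard error 0.10, 95% interval -0.59 to -0.15, limma adjusted p = 0.012). The fold change stayed between -0.39 and -0.35 when any sample was left out, and the call was lost only without vehicle replicate 2 (-0.35, limma adjusted p = 0.053). In the libraries with Y-linked transcripts the fold change was -0.33. A correction for the GC content of transcripts, which is 56.1% for *Dusp4*, gave -0.25 and ended the call (limma adjusted p = 0.054). The correction was fitted over all tested genes. With only the abundant genes split into 5 equal groups by GC content, the median deviation of the GC-richest group was 0.00, 0.01 and 0.08 in the vehicle libraries. With melatonin it was 0.06, -0.06 and -0.06, in log2 units.

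*Dusp1*, the founding member of the family and a phosphatase of p38 and JNK as well as ERK, was at 569, 631 and 593 in vehicle and at 862, 709 and 602 with melatonin. Melatonin replicate 1 was the highest of all samples and melatonin replicate 3 lay inside the vehicle range. The log2 fold change was 0.26 with a standard error of 0.13 and a 95% interval from -0.04 to 0.57 (limma adjusted p = 0.13). It passed the test without melatonin replicate 3 (0.39, limma adjusted p = 0.029) and after the GC correction (0.39, adjusted p = 0.038). In the libraries with Y-linked transcripts it was 0.53. Exons of *Dusp1* overlap those of *Ergic1* on the opposite strand, which fell from between 2415 and 2554 to between 1616 and 1933 (log2 fold change -0.51, limma adjusted p = 0.0018). Whether counting used strand is not given in the sources used here, so reads of this pair may not be fully separated.

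*Dusp2*, a phosphatase of activated lymphocytes, was scarce. Its counts were 18.7, 38.4 and 85.0 in vehicle and 30.8, 68.8 and 69.4 with melatonin. Its vehicle values differed among themselves more than the groups did, and vehicle replicate 3, the library with the highest epithelial sum, held the highest of all. The log2 fold change of 0.41 has a 95% interval from -0.79 to 1.61 (limma adjusted p = 0.54), so neither a rise nor a fall was detectable with this depth and spread. Without vehicle replicate 1 it was -0.11, and in the libraries with Y-linked transcripts -0.35.

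The start regions of these genes differ in the response elements they carry. The 250 bases before the start of the canonical transcript were searched on both strands for the serum response element SRE, bound by SRF, for the cyclic AMP response element CRE (TGACGTCA), AP-1 (TGACTCA), the antioxidant response element ARE (TGACNNNGC) and an ETS site (CCGGAAG). Among the 12064 promoters of tested genes with a full window, 1.17% held an SRE, 2.12% a CRE, 3.27% an AP-1 site, 10.7% an ARE and 10.5% the ETS letters. Of the 10 members, only *Dusp5* held an SRE, with a pair of them side by side at 38 to 29 and 28 to 19 bases before the start, and only *Dusp1* held the CRE, at 96 to 89 bases. An ARE match was found for *Dusp1*, *Dusp5* and *Spry2*, where there were 2, and no member held the AP-1 or the ETS letters in this window. The windows of *Dusp5*, which rose, of *Dusp4*, which fell, and of *Dusp1* are shown for this contrast, read from GRCm39 in the direction of transcription, with matches to any of these motifs in capitals. They lie at chr19:53517282-53517531 on the plus strand, chr8:35274192-35274441 on the plus strand and chr17:26727507-26727743 on the minus strand, the last without the 13 bases next to the start, which an exon of another *Dusp1* transcript covers.
Dusp5: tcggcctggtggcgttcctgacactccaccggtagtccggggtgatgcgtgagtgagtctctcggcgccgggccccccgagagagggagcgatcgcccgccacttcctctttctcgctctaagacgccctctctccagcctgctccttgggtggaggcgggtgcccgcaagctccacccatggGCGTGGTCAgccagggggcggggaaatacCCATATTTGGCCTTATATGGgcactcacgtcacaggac
Dusp4: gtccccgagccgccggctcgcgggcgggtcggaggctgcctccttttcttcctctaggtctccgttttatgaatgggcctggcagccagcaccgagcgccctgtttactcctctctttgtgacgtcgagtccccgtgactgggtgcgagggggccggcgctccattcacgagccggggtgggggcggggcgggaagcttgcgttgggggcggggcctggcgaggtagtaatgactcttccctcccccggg
Dusp1: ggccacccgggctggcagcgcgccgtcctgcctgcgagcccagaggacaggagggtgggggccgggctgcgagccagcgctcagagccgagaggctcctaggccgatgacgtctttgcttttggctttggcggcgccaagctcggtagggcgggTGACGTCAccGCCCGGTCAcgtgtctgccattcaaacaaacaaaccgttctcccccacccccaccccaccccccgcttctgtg
In the *Dusp5* window the first capitals are the ARE letters on the reverse strand and the long run further on is the pair of SREs. In the *Dusp1* window the CRE comes first and the ARE letters follow it. The *Dusp4* window has no capitals, which says only that these letters are not in it. An exon of the lncRNA *Gm50394* runs across the *Dusp5* window and an exon of the lncRNA *Gm56852* covers most of the *Dusp4* window, both on the opposite strand. A match is a description of letters and was not tested as a site.

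*Dusp6* encodes the cytoplasmic phosphatase that is selective for ERK, and its transcript is a common readout of ERK activity. It was by far the most abundant of the 10. Its counts were 6061, 5898 and 5991 in vehicle and 7266, 5226 and 4882 with melatonin. The vehicle samples were nearly equal, at 5983 ± 81.5 (SD, n = 3), whereas the melatonin samples lay on both sides of them, at 5791 ± 1289. The log2 fold change was -0.07 with a 95% interval from -0.38 to 0.24 (limma adjusted p = 0.70).

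The direction of *Dusp6* depended on the libraries and scaling used. It was 0.04 without melatonin replicate 3 and 0.06 under quantile normalization, neither passing the test (limma adjusted p = 0.81 and 0.72). Without melatonin replicate 1 the log2 fold change was -0.24 and passed the test as lower (limma adjusted p = 0.010). In the libraries with Y-linked transcripts, where replicate 1 is the melatonin sample kept, the value was 0.28. The spread in that fit comes from vehicle alone, so no test result is given for it. The log2 SD of *Dusp6* was 0.02 in vehicle, smaller than that of nearly all abundant genes (4.01% had a smaller one), and 0.31 with melatonin, where 85.0% had a smaller one.

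*Dusp10* encodes a phosphatase that prefers p38 and JNK to ERK. It stood at 136, 161 and 149 in vehicle and at 224, 161 and 213 with melatonin. Melatonin replicates 1 and 3 were above the vehicle range, and melatonin replicate 2 met its upper end. The log2 fold change of 0.41 (standard error 0.17, 95% interval 0.02 to 0.79) missed the threshold (limma adjusted p = 0.074). It passed without melatonin replicate 2 (0.55, limma adjusted p = 0.027). In the libraries with Y-linked transcripts it was 0.59.

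**Figure D2:**
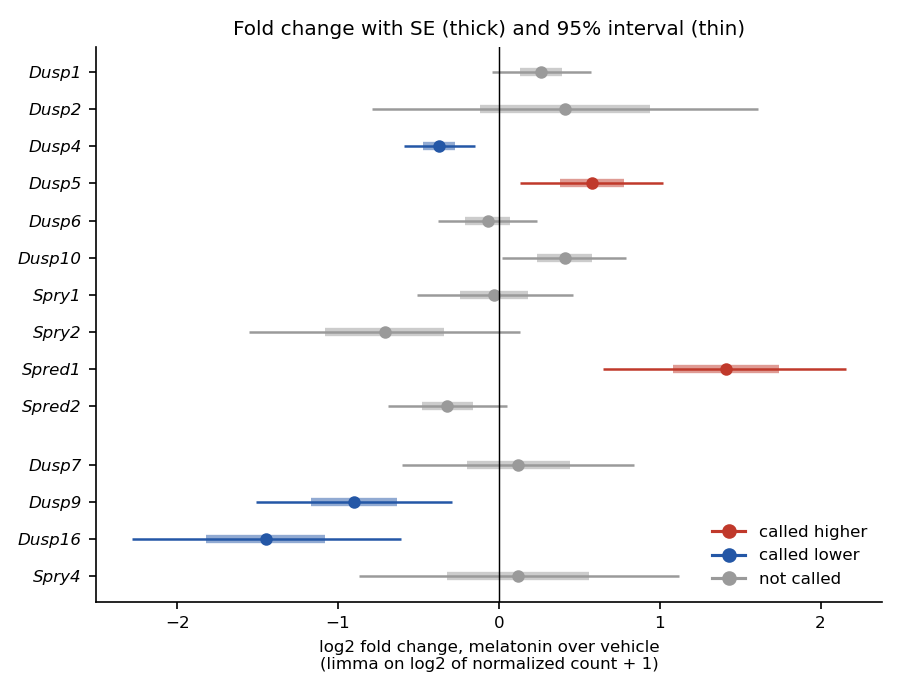
Log2 fold change of melatonin over vehicle (horizontal axis) for the 10 genes and, under the gap, for *Dusp7*, *Dusp9*, *Dusp16* and *Spry4*, with the standard error as a thick bar and the 95% interval as a thin line, from limma with 3 samples per group. Red marks genes called higher, blue genes called lower and grey the rest. *Spred1* lies farthest right at 1.41, and *Dusp2* has an interval from -0.79 to 1.61.

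The Sprouty genes encode inhibitors of signalling from receptor tyrosine kinases to Ras and ERK. *Spry1* was at 565, 579 and 650 in vehicle and at 606, 809 and 410 with melatonin. The melatonin samples held both the highest and the lowest value of all 6. The means were 598 ± 46.0 and 608 ± 200 (SD, n = 3 each), and the log2 fold change was -0.03 with a 95% interval from -0.51 to 0.46 (limma adjusted p = 0.93). Its log2 SD of 0.49 with melatonin was larger than that of 95.9% of the abundant genes. In the libraries with Y-linked transcripts the fold change was 0.02, and without melatonin replicate 3, the lowest sample, 0.23.

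*Spry2* was close to the limit of detection. It was at 14.0, 15.0 and 12.6 in vehicle and at 7.47, 8.74 and 8.04 with melatonin, and the groups did not overlap. It passed the filter of 10 only through the vehicle samples, so its direction and its place among the members without overlap are bound to that filter. These values rest on 43 estimated counts over the vehicle libraries and 24 over the melatonin libraries. The log2 fold change was -0.71 with a 95% interval from -1.55 to 0.13 (limma adjusted p = 0.14). In the fit without the mean-variance trend, where low genes are given the same expected spread as others, it passed (limma adjusted p = 0.0061). In the libraries with Y-linked transcripts it was -0.81.

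*Spred1* showed the largest change among the 10. It encodes a membrane adaptor that binds neurofibromin and so limits active Ras. Its counts were 132, 122 and 215 in vehicle and 508, 545 and 234 with melatonin. Melatonin replicates 1 and 2 stood well above all vehicle samples, whereas melatonin replicate 3 was just above vehicle replicate 3, the highest of its group and the library with the most epithelial transcripts. The means were 156 ± 51.3 and 429 ± 170 (SD, n = 3 each). Its log2 SD was 0.44 in vehicle and 0.67 with melatonin, larger than that of 97.4% and 98.5% of the abundant genes. *Spred1* rose by 1.41 on the log2 scale (standard error 0.33, 95% interval 0.65 to 2.16, limma adjusted p = 0.0079).

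The rise of *Spred1* was called whichever library was left out. It passed in 6 of 6 fits that left out a sample, with values from 1.19 to 1.79, the highest without melatonin replicate 3, and in all 14 fits under other settings, from 1.29 to 1.74. Those 14 include the libraries with Y-linked transcripts, where it was 1.74 and the spread comes from vehicle alone. After the GC correction it was 1.29 (limma adjusted p = 0.014). Its transcript has a GC content of 43.2%, below the median of 50.2% over genes with an annotated 3′ end. The GC-poorest of the 5 groups of abundant genes deviated by a median of -0.06, -0.05 and -0.14 in vehicle and by 0.08, 0.12 and 0.06 with melatonin, in log2 units.

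*Spred2*, the close relative of *Spred1*, did not follow it. Its counts were 160, 142 and 189 in vehicle and 120, 133 and 137 with melatonin. The groups did not overlap, with melatonin lower, and the means were 164 ± 23.5 and 130 ± 8.57 (SD, n = 3 each). The log2 fold change was -0.32 with a 95% interval from -0.69 to 0.05 (limma adjusted p = 0.13). After a correction for transcript length it was -0.47 and passed (limma adjusted p = 0.042). In the libraries with Y-linked transcripts it was -0.43.

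The start region of *Spred1* is dense in CpG, a feature of promoters that are open in many cell types. Its 250 bases held 30 CpG, and 94.4% of the promoters of tested genes held fewer, the median being 13. The window of *Spred1*, the member with the largest change, is printed from its 5′ end to the first base of another *Spred1* exon, at chr2:116951290-116951523 on the plus strand of GRCm39, with 16 bases left out. An exon of the lncRNA *Gm74661* overlaps it on the same strand. No motif of those searched was found, so it has no capitals.
Spred1: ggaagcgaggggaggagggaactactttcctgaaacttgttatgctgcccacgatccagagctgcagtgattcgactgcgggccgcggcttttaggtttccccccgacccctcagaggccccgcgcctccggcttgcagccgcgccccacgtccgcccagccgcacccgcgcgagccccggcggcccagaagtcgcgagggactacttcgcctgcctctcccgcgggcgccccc
*Spry2* held 29 CpG in its window, *Dusp10* 26 and *Dusp1* and *Dusp4* 24 each, and *Spry1* held the fewest of the 10 with 4.

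**Figure D3:**
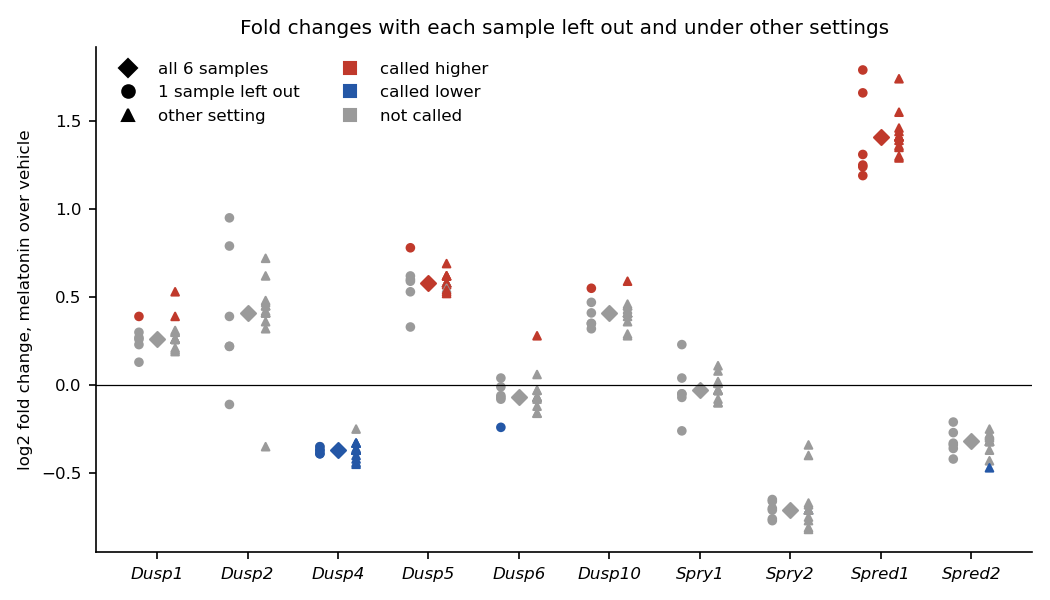
Log2 fold change of melatonin over vehicle (vertical axis) for each of the 10 genes with all 6 samples (diamonds), with 1 sample left out (circles) and under the other settings (triangles), coloured red where called higher, blue where called lower and grey where not called. *Spred1* is red throughout, *Dusp4* is blue in 5 of 6 circles, *Dusp5* is red in 1 of 6, and *Dusp6* has a blue circle. The red triangle of *Dusp6* rests on a single melatonin library.

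Levels of different genes can be compared only per length. In normalized counts per kilobase of the canonical transcript, the order in vehicle was *Dusp6* (2110), *Dusp5* (408), *Dusp1* (300), *Spry1* (222), *Dusp4* (187), *Dusp10* (42.4), *Spred2* (34.1), *Dusp2* (27.2), *Spred1* (24.7) and *Spry2* (4.28), as means of 3 samples. The sample ranges of neighbours overlapped between *Dusp5* and *Dusp1*, between *Dusp10* and *Spred2*, between *Spred2* and *Dusp2* and between *Dusp2* and *Spred1*. With melatonin, *Spred1* stood sixth at 67.8, ahead of *Dusp10* at 56.8 with overlapping ranges, and *Spred2* stood ninth at 27.1, overlapping *Dusp2* at 32.4. With the length of all exons together in place of the canonical transcript, *Dusp4* moved ahead of *Spry1* in both groups and *Spred2* ahead of *Dusp10* in vehicle. *Dusp6* was above 94.0% of all tested genes per kilobase in vehicle, and *Spry2* above 7.96%.

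**Figure D4:**
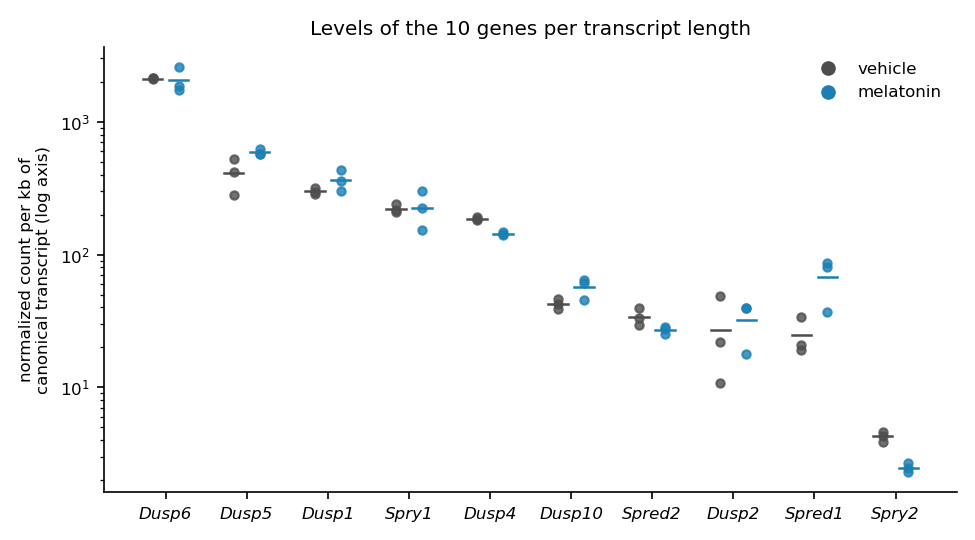
Normalized counts per kilobase of the canonical transcript (vertical log axis) for the 10 genes, ordered by their vehicle mean, in vehicle (grey) and melatonin (blue) samples, with a bar at the mean of 3. *Dusp6* is highest in both groups, and *Spred1* moves from 24.7 to 67.8.

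The make-up of the 2 families was compared in the same unit. Summed per kilobase, the 6 phosphatase genes came to 3080 ± 139 in vehicle and 3230 ± 508 with melatonin (SD, n = 3 each), with overlapping samples. *Dusp6* made 68.8% ± 3.67 of that sum in vehicle and 62.9% ± 3.94 with melatonin, with overlapping samples. *Dusp5* made 13.1% ± 3.43 and 18.5% ± 2.95, also with overlap, since vehicle replicate 3 was at 16.3% and melatonin replicate 1 at 15.1%. *Dusp4* made 6.07% ± 0.240 and 4.52% ± 0.575, and *Dusp1* 9.77% ± 0.512 and 11.2% ± 0.519, neither with overlap. Among the 4 Sprouty and SPRED genes, *Spry1* made 78.0% ± 2.15 in vehicle and 69.6% ± 2.24 with melatonin, *Spred1* 8.54% ± 1.87 and 20.6% ± 3.67, and *Spry2* 1.52% ± 0.265 and 0.823% ± 0.265, none with overlap. *Spred2*, at 11.9% ± 0.767 and 9.05% ± 3.4, had overlapping samples. A larger share of 1 gene lowers the other shares, and *Spry1* itself was at 598 ± 46.0 and 608 ± 200 normalized counts. An exact permutation test of 3 against 3 samples cannot give a two-sided p below 0.1, so no p is given for these shares.

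Of the other MAP kinase phosphatase genes, 3 were tested, 0 were called higher and 2 lower, beside 24.5% and 24.7% of all genes. The count called lower was 1 without vehicle replicate 2 and without vehicle replicate 3, and 0 at a threshold of 0.01. *Dusp16*, a phosphatase of JNK and p38, was at 73.7, 66.5 and 78.7 in vehicle and at 45.8, 15.3 and 25.1 with melatonin. *Dusp16* fell by 1.45 on the log2 scale (standard error 0.37, limma adjusted p = 0.011). *Dusp9*, an X-linked phosphatase of ERK, was at 53.2, 79.6 and 79.7 in vehicle and at 28.9, 38.2 and 45.2 with melatonin, and fell by 0.90 (standard error 0.27, limma adjusted p = 0.022). *Dusp7*, a relative of *Dusp6*, was at 360, 660 and 976 in vehicle and at 783, 729 and 522 with melatonin, with a log2 fold change of 0.12 (limma adjusted p = 0.77). *Spry4* was at 9.33, 12.2 and 10.5 against 19.6, 9.83 and 8.04 (0.12, limma adjusted p = 0.83). *Styxl1* and *Spred3* were listed below the filter, and *Dusp8* and *Spry3* are not among the genes with a value.

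Atypical dual-specificity phosphatases, small relatives with more varied substrates, were mixed. Of 13 genes in the list 10 were tested, 2 were called higher and 3 lower, close to the 24.5% and 24.7% of all genes, with a median of -0.13 on the log2 scale. The count called higher was 1 without vehicle replicate 1 or 2 or any of the 3 melatonin samples, and the count called lower was 1 without vehicle replicate 2 or 3 or melatonin replicate 1 or 2 and 5 after the GC correction. *Dusp14* rose from 241 ± 18.2 to 441 ± 34.6 (SD, n = 3 each, log2 fold change 0.87, limma adjusted p = 0.00059). *Dusp28* rose by 0.56 (adjusted p = 0.033) and *Dusp3*, a phosphatase of ERK and JNK, fell by 0.74 (limma adjusted p = 0.0047). *Dusp18*, another call, was at 0 in every melatonin library and at 1.87, 3.75 and 15.7 in vehicle, too low for a fold. It passed the filter only through vehicle replicate 3, so its direction is bound to that filter, and the other 2 genes called lower were *Dusp3* and *Styx*.

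The kinase chain that these proteins restrain was tested with the same fit. Of the 20 genes from adaptors and Ras to ERK and its kinase targets, 5 were called higher and 5 lower, near the 24.5% and 24.7% of all genes, and the median log2 fold change was 0.02. *Mapk3*, which encodes the kinase ERK1, fell from 1418 ± 35.6 to 903 ± 127 (SD, n = 3 each, log2 fold change -0.66, limma adjusted p = 0.0014). The largest rises were those of the Ras activator genes *Sos2* (0.98, limma adjusted p = 0.010) and *Rasgrp1* (0.84, adjusted p = 0.00027), and *Map2k1*, which encodes the kinase MEK1, rose by 0.65 (limma adjusted p = 0.00031). The largest falls were those of the scaffold gene *Ksr1* (-1.82, limma adjusted p = 0.0013) and of *Rps6ka3*, an ERK-activated kinase gene (-0.66, adjusted p = 0.012).

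Of 11 inhibitors of Ras other than Sprouty and SPRED, 3 were called higher and 4 lower, near the 24.5% and 24.7% of all genes, with a median of -0.06. The 4 include *Rasal1*, which was at 5.60, 9.37 and 16.8 in vehicle and at 0, 1.09 and 0 with melatonin and so passed the filter only through vehicle replicate 3. *Rasa3* rose from 915 ± 94.3 to 2504 ± 352 (log2 fold change 1.45, limma adjusted p = 6.4e-05) and *Rasa1* by 0.74 (adjusted p = 0.0032), and both encode proteins that speed the switching off of Ras. *Pebp1*, which encodes a RAF inhibitor, fell from 5428 ± 169 to 2235 ± 266 (-1.29, limma adjusted p = 4.2e-05), and the adaptor gene *Dok2* fell by 0.52 (adjusted p = 0.0011). *Nf1*, which encodes the neurofibromin that SPRED proteins recruit, was at 45.7, 52.5 and 32.5 in vehicle and at 24.3, 22.9 and 20.1 with melatonin. *Nf1* fell by 0.90 (limma adjusted p = 0.027) while *Spred1* rose.

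In the p38 and JNK arm the calls were all in the direction of higher levels. Of 20 genes in the list 19 were tested, 9 were called higher and 0 lower, beside 24.5% and 24.7% of all genes, and the median log2 fold change was 0.40. Of the 10 not called, *Mapk12* and *Mapkapk3* had fold changes below 0 (-0.22 and -0.05). *Map3k7*, which encodes TAK1, rose from 1196 ± 246 to 2513 ± 319 (log2 fold change 1.08, limma adjusted p = 0.0008), and *Mapk9*, which encodes JNK2, from 1722 ± 131 to 3084 ± 299 (0.84, adjusted p = 0.00026). A gene of this list was called lower in the fit without melatonin replicate 1. The count called higher ranged from 2 to 10 over the alternatives, the 2 where an absolute log2 fold change of at least 1 was also required.

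**Figure D5:**
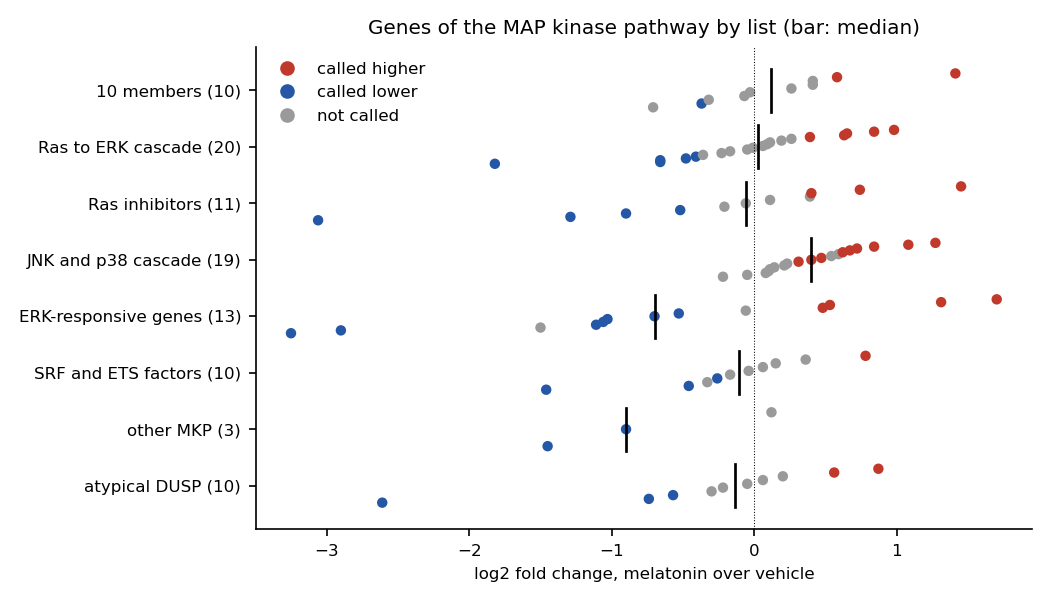
Log2 fold change of melatonin over vehicle (horizontal axis) of each tested gene in the lists named at the left, with the number tested in brackets, coloured by call, and the median of each list as a black bar. The JNK and p38 list has no blue point and a median of 0.40, and the ERK-responsive list has a median of -0.70. The points of *Rasal1* and *Dusp18* at the far left rest on melatonin values at or near 0 and are no measure of size.

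Genes known to answer to ERK did not move as a block. Of 15 such genes 13 were tested, 4 were called higher and 7 lower, beside 24.5% and 24.7% of all genes, and the median was -0.70. *Lif* fell from 762 ± 42.7 to 82.6 ± 31.5 (log2 fold change -3.25, limma adjusted p = 3.2e-05) and *Fosl1*, an AP-1 subunit gene, from 247 ± 12.2 to 33.1 ± 9.09 (-2.90, adjusted p = 5.6e-05). *Egr1*, an immediate early transcription factor gene, rose from 778 ± 28.2 to 2521 ± 81.4 (1.70, limma adjusted p = 4.4e-06), and *Sh2b3*, which encodes a brake on cytokine receptor signalling, rose by 1.31 (limma adjusted p = 0.00063). Of the 10 genes for SRF, its partners and ETS factors, 1 was called higher (*Ets2*, 0.78, limma adjusted p = 0.00049) and 3 lower, led by *Elk3* (-1.46, limma adjusted p = 2.3e-05) and *Ets1* (-0.46, adjusted p = 0.0024), beside 24.5% and 24.7% of all genes. *Srf* itself was at 408, 722 and 867 in vehicle and at 430, 541 and 550 with melatonin (-0.33, limma adjusted p = 0.29). The count of this list called higher was 2 without melatonin replicate 3, with a minimum mean of 100, at the same total, with voom and after the GC correction. It was 0 with an absolute log2 fold change of at least 1.

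Since *Dusp1* and its relatives also answer to cell handling and to glucocorticoids, lists for both were counted. Of 17 tested genes of the response to tissue dissociation, 8 were called higher and 4 lower (median 0.26), beside 24.5% and 24.7% of all genes, and the list shares *Egr1*, *Fos*, *Ier2* and *Ier3* with the ERK-responsive list. Its heat shock genes were mixed. *Hspa1b* rose by 2.15 (limma adjusted p = 0.00015), and *Hspa1a* and *Dnajb1* were also called higher. *Hsp90aa1* fell by 0.97 (limma adjusted p = 0.0018), and *Hspa8* was not called. The feedback gene *Socs3* of this list fell by 1.49 (limma adjusted p = 0.00081). Of 6 glucocorticoid-induced genes, *Sgk1* was called higher (1.80, limma adjusted p = 2.9e-05) and *Per1* lower (-1.07, limma adjusted p = 0.0071). The other 4 were not called, and the shares over all genes were 24.5% higher and 24.7% lower. The count called higher was 2 without vehicle replicate 3.

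Other genes shared the pattern of the member that rose most and the member that fell. By the distance between gene-centred log2 values over the 6 samples, among 9989 other genes with a mean of at least 100, those nearest to *Spred1* were *Reps1* (distance 0.31), *Fancf* (0.34) and *Snx25* (0.35). *Reps1* was at 165, 179 and 272 in vehicle and at 584, 770 and 278 with melatonin, so it too had its highest vehicle value in replicate 3 and its lowest melatonin value in replicate 3. Nearest to *Dusp4* were *Ctsz*, *2510002D24Rik* and *Cap1*, each at a distance of 0.06. *Cap1* was between 24495 and 25340 in vehicle and between 18461 and 19908 with melatonin, a log2 fold change of -0.37 beside -0.37 for *Dusp4*.

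No library held the extreme value for all members. Vehicle replicate 1 held the lowest vehicle value for 6 of the 10 and vehicle replicate 3 the highest for 5. Melatonin replicate 3 was the lowest of its group for 5, and melatonin replicates 1 and 2 were the highest for 4 each.

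In their 3′ ends the members shared a sequence found in many unstable messages. The letters ATTTA occurred in the annotated 3′ untranslated part of 10 of 10 members and in 72.4% of 11961 tested genes, at a median of 1.97 per kilobase in the members and 1.33 in all genes. *Dusp2* had the highest density at 6.88 per kilobase and *Dusp1* was next at 5.80, whereas *Dusp6* had the lowest at 0.833. The longer form TTATTTATT was present in *Dusp1* alone, with 2 copies, and in 8.93% of all genes. *Spred1* had the longest 3′ end of the 10, with 4330 bases and 12 copies of ATTTA. The median 3′ length was 1116 bases in the members and 1338 in all genes.

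By the GENCODE annotation of GRCm39, *Spred1* and *Spred2* lie at chr2:116951524-117018277 and chr11:19874355-19974442, *Spry1* and *Spry2* at chr3:37693897-37698755 and chr14:106128766-106136446. *Dusp1* lies at chr17:26724564-26781102, *Dusp2* at chr2:127177957-127180296, *Dusp4* at chr8:35274442-35287048, *Dusp5* at chr19:53517532-53530862, *Dusp6* at chr10:99086564-99103361 and *Dusp10* at chr1:183745499-183807842. *Spry2* and *Dusp1* are on the minus strand and the other 8 on the plus strand. The counts cover whole genes, so they do not separate exons or transcripts.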

How the data were processed

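RNA sequencing was carried out by the authors on ILC2s from 6 cultures, 3 with melatonin and 3 with DMSO. According to the study's methods, reads were trimmed in Partek Flow, aligned with STAR to mm39 (GRCm39) and assigned to Gencode genes by an expectation-maximization step, genes under 10 counts in all samples were removed, and counts were divided by a median ratio size factor per sample. The deposited signal values are these normalized counts, not whole reads: divided by the value of 1 read, 63.1% to 66.3% per library came within 0.01 of a whole number. No count model was therefore used. The deposited values also include genes below 10 in every sample, such as *Mcpt8* at 3.15 or less, so the stated filter does not hold for them as worded. Totals of estimated counts were 17056244 to 20511736 per sample.

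Values were taken as log2(normalized count + 1), so fold changes of low genes are understated. The 14419 of 16381 genes that reached 10 in 1 sample or more were fitted with limma 3.58.1 in R 4.3.3 (eBayes with trend), treatment being the only term, and p-values were adjusted by Benjamini-Hochberg with a threshold of 0.05. Of the listed genes, 16334 had a name in the GENCODE annotation used here, which also gave lengths, positions and sequences. Alternatives were other pseudocounts, filters, scalings and variance models, voom, a replicate block, length and GC corrections, each sample left out, the libraries with Y-linked transcripts alone, and stricter thresholds. The script was tested on simulated data.

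The 10 genes and the lists were chosen with earlier results of these data known. Named genes are the 10, all other genes of their families, up to 2 largest called rises and 2 largest called falls per list with a mean of at least 100, and the 3 genes nearest in pattern to the strongest rise and fall. *Mapk3*, *Map2k1*, *Nf1*, *Srf*, *Dusp18*, *Rasal1*, *Styx*, *Mapk12*, *Mapkapk3* and *Per1* were named after their values were seen. The same holds for *Hspa1a*, *Dnajb1*, *Hsp90aa1* and *Hspa8*. Single values of 1 gene of the lists are not reported here. Python packages were numpy 2.4.6, pandas 2.3.3 and, for figures, matplotlib 3.10.9.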

Additional observations from a re-analysis of the deposited data

How the results depend on the processing

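Of the 10 genes, *Spred1* kept its call under each of the 20 alternatives fitted. The number of members called higher was 1 without the trend, at a threshold of 0.01 and with an absolute log2 fold change of at least 1, 3 after the GC correction, and 4 in the libraries with Y-linked transcripts. The number called lower was 0 after the GC correction, at a threshold of 0.01 and with a log2 fold change of at least 1, and 2 without the trend and after the length correction. With each sample left out, 1 to 2 were called higher and 0 to 2 lower. The fold changes of 3 members that were not called turned: *Dusp2*, whose interval is wide, to -0.35 in the libraries with Y-linked transcripts and -0.11 to 0.95 with a sample left out; *Dusp6* to 0.06 under quantile normalization, 0.28 in the libraries with Y-linked transcripts and -0.24 to 0.04 with a sample left out. *Spry1* turned to 0.01 at the same total and with voom, 0.11 with sample weights, 0.02 in the libraries with Y-linked transcripts, 0.08 after the GC correction and -0.26 to 0.23 with a sample left out. The causes were not tested. Over all genes, 2188 were called higher and 2267 lower at 0.01, and 866 and 1392 with a log2 fold change of at least 1, where the members' counts are 1 and 0. Same-numbered samples had correlations of -0.11, 0.14 and -0.19 in their deviations, so they share only a number; with the replicate block 3160 genes were called higher and 3278 lower, and the members' counts stayed at 2 and 1. A minimum mean of 100 normalized counts left out *Dusp2* and *Spry2*, and for *Spry2* the 43 and 24 estimated counts behind the groups limit the precision.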
